A study of Homo sapiens with 6 samples.

Results

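HCT116 is an established human colorectal cancer cell line with an intact p53 response, and 30 genes known as transcriptional targets of p53 were followed in RNA sequencing libraries of this line. The members were chosen by symbol from genes known to respond to p53, and all 30 were found among the 56638 gene symbols of the deposited count tables, with TIGAR listed under its older symbol C12orf5. All 30 also passed the filter on low counts, which left 16369 genes for testing. The genes were compared between 3 libraries with the genotype "control", for which no guide is stated, and 3 libraries whose genotype is given as ZFP90 KO. For the latter, guide RNAs were directed at exon 3 of ZFP90, which encodes a KRAB zinc-finger protein. Both groups were HCT116 cells at passage 16 to 19 in serum-containing medium with no stated drug or irradiation. The labels name no guide sequence, do not say whether the edited cells were 1 clone, and leave unstated whether replicates were separate cultures. A p-value here therefore reflects how far these libraries scatter, and that scatter may be technical.

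p53 is a transcription factor that is held at a low level in unstressed cells by the ubiquitin ligase MDM2, with its relative MDM4 masking p53's activating domain. DNA damage and other stresses release it, and it then binds paired copies of a short DNA element near its target genes. Its targets halt the cell cycle, repair DNA, shift metabolism, trigger cell death, and, through MDM2 and PPM1D, switch p53 itself off again. Many of these genes keep a basal level of p53-dependent transcription in unstressed p53-intact epithelial lines. The labels state no stress, but p53 activity was not measured, so whether the levels below are basal was not tested.

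The sequences that p53 reads were looked for first in the promoter windows of the members, to show which annotated starts have letters close to the p53 element nearby. RefSeq windows (GRCh38.p14, 250 bases before to 50 after an annotated start) were found for 26 members, 35 windows in all. The element searched was the 20-base p53 site, made of a pair of p53 decamers with no spacer, with the C and G of both cores kept. The decamer consensus is its own reverse complement, so both strands were covered. At most 3 mismatches were allowed, and 7 members had such a match in 8 of their 35 windows, while 1.12% of all 35116 windows had one. The 7 best matches are shown 5′ to 3′ on the gene's strand, with the 4-base cores (bases 4 to 7 and 14 to 17) in capitals.
MDM2: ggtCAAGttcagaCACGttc
AEN: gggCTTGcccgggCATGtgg
DDB2: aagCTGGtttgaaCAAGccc
GDF15: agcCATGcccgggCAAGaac
PMAIP1: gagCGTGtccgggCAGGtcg
SESN1: ggaCAAGtctccaCAAGtca
FDXR: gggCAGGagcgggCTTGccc
The MDM2 match (chr12:68808923-68808942, plus strand) had 2 mismatches and lay 94 bases before an annotated start, outside annotated exons of MDM2. Those of AEN (chr15:88621306-88621325, plus strand, 2 mismatches) and DDB2 (chr11:47214969-47214988, plus strand, 1 mismatch) overlapped exons of GENCODE release 29. GDF15 (chr19:18386186-18386205, plus strand, in an exon) and PMAIP1 (chr18:59899811-59899830, plus strand, outside its exons) had 3 mismatches each. So did SESN1 (chr6:109009018-109009037, minus strand, outside its exons) and FDXR (chr17:74872996-74873015, minus strand, in an exon). Each match was compared with exons of its own gene only.

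DDB2 was the single member with 2 exact decamers at most 13 bases apart, a pair that occurred in 0.0285% of all windows. It is shown with its cores in capitals because it is the closest match to the consensus among the members.
DDB2 exact pair: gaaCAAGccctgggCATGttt
This pair spans chr11:47214979-47214999 on the plus strand (GRCh38.p14), starts at base 6 of the transcript, and has a spacer of 1 base between the decamers. A match is a description of letters and not a bound site, and p53 elements that lie elsewhere in a gene were not searched.

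The libraries held between 13424356 and 17012910 reads in genes, so 3 reads corresponded to 0.181 to 0.224 CPM (reads scaled to library size, here after TMM scaling, which sets libraries level by the trimmed mean of their log ratios). RNA of ZFP90 was higher in the labelled knockout (85.7 ± 4.75 CPM) than in control (45.99 ± 2.53 CPM; SD, n = 3 each; log2 fold change 0.90; edgeR adjusted p = 5.1e-05). Counts per gene carry no information on an edited reading frame, and directions are given by label. Control replicate 2 differed from the others by chromosome. Its genes lay at a median of 87.4% of the other controls on chromosome 6 and 74.97% on chromosome 8, against 101.4% to 103.9% on chromosomes 1 to 5 and 10 to 22; chromosomes 7, 9 and X, which hold no member, stood at 80.3%, 69.6% and 52.9%. Of the members, 7 lie on chromosomes 6 and 8, so results are also given without that library where it changes them. Epithelial markers were present at similar summed levels (3283 to 3393 CPM over 8 genes in controls, 3248 to 3363 in the labelled knockout). Of the 8, 1 was called lower, a share of 12.5%, where 21.1% of all genes were called (11.4% lower). It was KRT18, which fell by 0.23 on the log2 scale. Its call was lost with DESeq2 and with the replicate block. The call was also lost when control replicate 3, or either of replicates 2 and 3 labelled knockout, was left out. Of 12 leukocyte markers 0 passed the count filter, and 4 of them had no reads in any library. Fibroblast and endothelial markers summed to 77.7 to 98.6 CPM and 78.9 to 100.5 CPM, mostly from COL1A1, and PECAM1 had no reads. In bulk RNA, fewer cells expressing a gene and less RNA per cell cannot be told apart.

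Of the 30 p53 targets, 3 fell in the labelled knockout and 0 rose: ZMAT3, PMAIP1 and BAX were the 3 (edgeR, Benjamini-Hochberg adjusted p under 0.05 over all genes tested). Over all 16369 genes, 21.1% were called in either direction, 9.73% higher and 11.4% lower, and 3 of 30 members in the lower direction is near that background share. With library size alone as the scaling, the calls over all genes split into 986 higher and 2343 lower instead of 1593 and 1861, and 4 members fell, SESN2 being added. At an unadjusted edgeR p under 0.05, 4 members were higher and 6 lower, where 5725 of the 16369 genes tested passed in either direction. The other 27 members had log2 fold changes on both sides of 0, and over all 30 the signs split into 15 positive and 15 negative. The median log2 fold change of the members was -0.0019, and that of all genes tested was 0.0084. The median absolute log2 fold change was 0.14 for the members and 0.18 for all genes. The 95% interval of the fold change stayed within 1.5-fold in both directions for 27 of 30 members, and for 60.5% of all genes. These shares are not at equal depth, since the members' median control level was 54.9 CPM and that of all genes 19.6 CPM. The 3 members whose interval reached beyond 1.5-fold were ZMAT3, PERP and SPATA18.

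**Figure D1:**
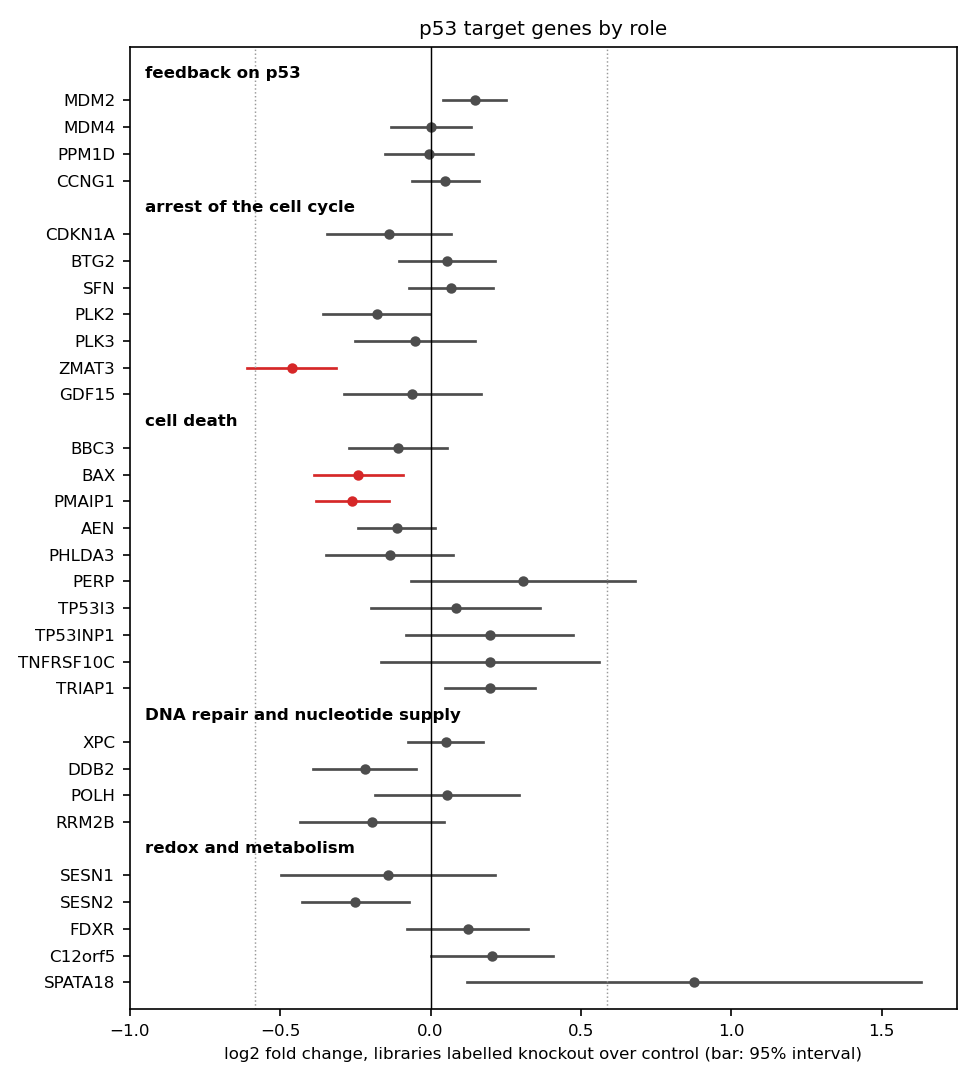
The plot of fold changes by role gives each member's log2 fold change (point; libraries labelled knockout over control) with its 95% interval (bar), red where called lower; dotted lines mark 1.5-fold. The 3 called members, ZMAT3, BAX and PMAIP1, lie left of 0, while SPATA18 has the widest interval, from 0.12 to 1.63.

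Control replicate 2 changed which members passed. Without it, 1 member was called higher and 7 lower, where 27.7% of all genes were called. With any other library left out, 2 were called lower (PMAIP1 and ZMAT3) and 0 higher, where 10.7% to 15.4% of all genes were called. The 7 lower were ZMAT3, PMAIP1, BAX, SESN2, CDKN1A, PLK2 and RRM2B, and the 1 higher was TRIAP1. The 7 members on chromosomes 6 and 8 stood in control replicate 2 at 65.6% to 93.2% of the other controls, with a median of 74.2%. The 23 other members had a median of 100.2%, with SPATA18 lowest at 42.8% from 5 reads.

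**Figure D2:**
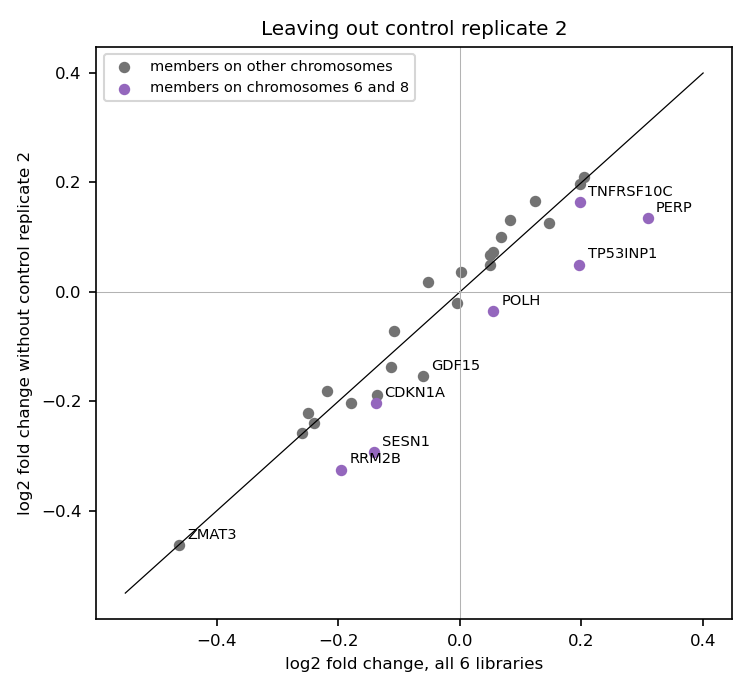
Each point is a member; the x axis gives its log2 fold change with all 6 libraries and the y axis the value without control replicate 2, with members on chromosomes 6 and 8 in purple and the line marking equal values (SPATA18, from 0.88 to 0.57, lies outside the axes). All 7 purple points lie below the line, with PERP going from 0.31 to 0.13 and RRM2B from -0.19 to -0.32.

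Among the feedback regulators of p53, 0 of 4 were called, where 21.1% of all genes were. MDM2, the ubiquitin ligase that marks p53 for degradation and is itself a p53 target, measured 158.2, 153.8 and 162.7 CPM in control replicates 1 to 3 and 172.4, 175.4 and 177.5 CPM in the labelled knockout. All 3 labelled knockout libraries lay above all 3 controls. The fitted level was 110.7% of control. The log2 fold change was 0.15 (SE 0.045; 95% interval 0.043 to 0.25), and it was not called (edgeR adjusted p = 0.0509). Of 13 alternatives, limma-voom alone called it (adjusted p = 0.0426). With library size alone as the scaling the value was 0.080 (adjusted p = 0.395), and DESeq2 gave an adjusted p of 0.126. MDM4, which binds p53 without degrading it, stood at 164.3 ± 6.78 against 164.5 ± 9.57 CPM (SD, n = 3). PPM1D, the phosphatase that removes damage-induced phosphates from p53 and its kinases, stood at 37.97 ± 1.09 against 37.8 ± 1.83 CPM. CCNG1, cyclin G1, stood at 103.7 ± 0.54 against 107.3 ± 4.39 CPM. For MDM4, PPM1D and CCNG1 the groups overlapped, and the 95% intervals of the log2 fold change together ran from -0.15 to 0.16.

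Of the 7 members that act on the cell cycle or are secreted in response to p53, 1 was called, where 21.1% of all genes were. ZMAT3, an RNA-binding zinc-finger protein that acts on splicing and messenger RNA stability, measured 62.65, 62.78 and 62.71 CPM in the controls and 43.4, 49.6 and 43.7 CPM in the labelled knockout. The controls were nearly equal and every labelled knockout library lay below them. ZMAT3 fell to 72.6% of the control level (log2 fold change -0.46, SE 0.066; edgeR adjusted p = 0.0018), and its call held under every alternative tried, with the adjusted p at most 0.0147. In the edgeR test with TMM scaling it was the single member under 0.01; PMAIP1 was also under 0.01 with 5 alternatives that used all libraries, among them DESeq2 (adjusted p = 0.00763) and limma-voom (adjusted p = 0.00901), and PERP and SESN2 with no count filter.

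CDKN1A, which encodes the cyclin-dependent kinase inhibitor p21 and is the main arm of p53-dependent arrest, measured 266.8, 234.8 and 275.4 CPM in the controls and 235.1, 263.3 and 207.7 CPM in the labelled knockout. The groups overlapped, and control replicate 2 was the lowest control, with CDKN1A on chromosome 6. The log2 fold change was -0.14 (SE 0.091; 95% interval -0.34 to 0.069; edgeR adjusted p = 0.317), and without control replicate 2 it was -0.20 and called (adjusted p = 0.0372). None of the other 12 alternatives called it. The value was -0.23 without replicate 2 labelled knockout (adjusted p = 0.119), -0.092 when control replicate 3 was left out, and -0.057 without replicate 3 labelled knockout (edgeR adjusted p = 0.701). PLK2, a polo-like kinase of the stress response, measured 74.7, 71.2 and 76.2 CPM against 65.4, 58.4 and 72.3 CPM. Replicate 3 labelled knockout lay among the controls, and the log2 fold change was -0.18 (SE 0.078; edgeR adjusted p = 0.143), called without control replicate 2 (-0.20; adjusted p = 0.0407) and under no other alternative. When replicate 2 labelled knockout was left out the value was -0.11 (edgeR adjusted p = 0.336).

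The remaining 4 of this group overlapped between the groups and were not called under any alternative. GDF15, a secreted stress cytokine, varied among the controls, at 675.4, 581.6 and 757.8 CPM against 709.5, 629.1 and 592.1 CPM. PLK3, a related polo-like kinase, stood at 67.2 ± 5.64 against 64.9 ± 6.75 CPM (SD, n = 3). BTG2, an antiproliferative cofactor of messenger RNA deadenylation, stood at 34.8 ± 1.92 against 36.1 ± 1.66 CPM. SFN, stratifin, which holds mitotic kinases in the cytoplasm, stood at 130.1 ± 5.21 against 136.4 ± 9.48 CPM.

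**Figure D3:**
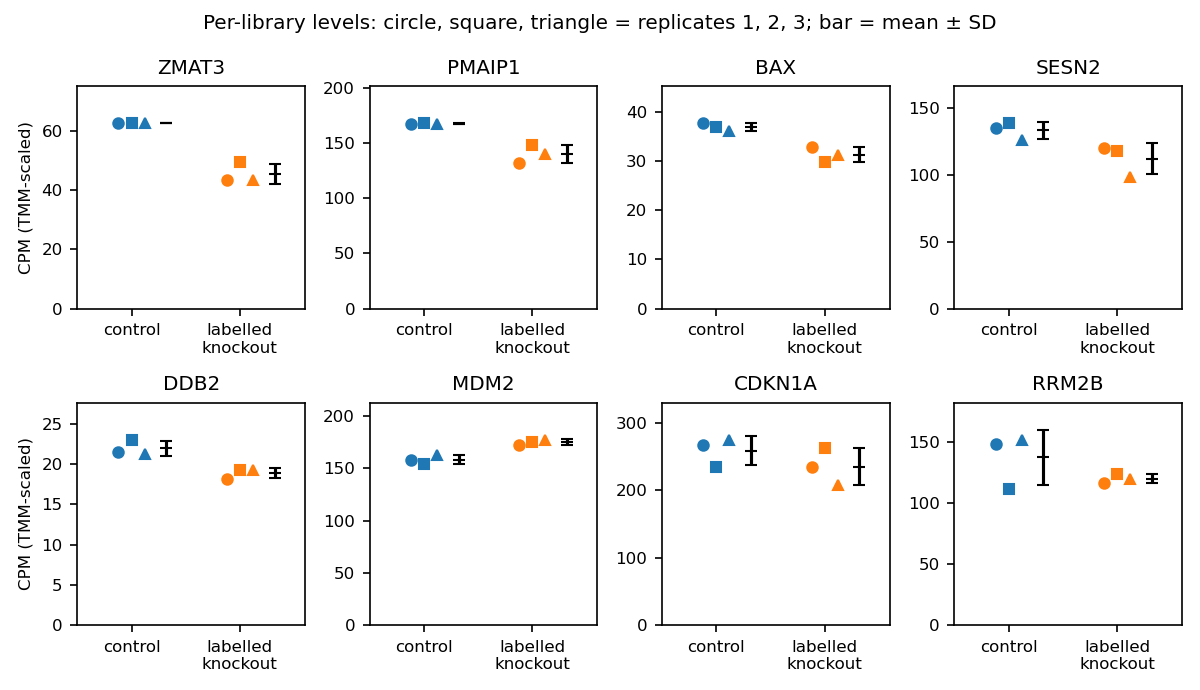
The panels give TMM-scaled CPM per library for 8 members, controls in blue and libraries labelled knockout in orange, with the mean ± SD (n = 3) beside each group; each y axis starts at 0. For ZMAT3, PMAIP1, BAX, SESN2 and DDB2 every orange point lies below every blue one, for MDM2 above, and for CDKN1A and RRM2B the groups overlap.

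Of the 10 members of the cell death group, 2 were called, both lower, a share of 20% where 21.1% of all genes were called. PMAIP1, which encodes NOXA, a BH3-only protein that neutralises MCL1, measured 167.7, 168.5 and 167.3 CPM in the controls and 131.8, 148.4 and 140.4 CPM in the labelled knockout. The groups were clearly separated. PMAIP1 fell to 83.5% of the control level (log2 fold change -0.26, SE 0.054; edgeR adjusted p = 0.0105), and the call held under every alternative at the 0.05 threshold (highest adjusted p 0.0476). BAX, the effector that permeabilises the outer membrane, measured 37.7, 36.9 and 36.1 CPM against 32.7, 29.7 and 31.1 CPM. Every labelled knockout library was below every control. BAX fell to 84.6% of the control level (log2 fold change -0.24, SE 0.065; edgeR adjusted p = 0.0316), but its call was lost with DESeq2 (adjusted p = 0.0728), with no count filter, and with any 1 library other than control replicate 2 left out (highest edgeR adjusted p 0.0987), so that 6 of 13 alternatives called it.

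Upstream sequence is shown for PMAIP1 and BAX, the 2 cell death genes that fell, up to the first annotated exon of each gene. The 20-base stretch most like the p53 site is in capitals.
PMAIP1: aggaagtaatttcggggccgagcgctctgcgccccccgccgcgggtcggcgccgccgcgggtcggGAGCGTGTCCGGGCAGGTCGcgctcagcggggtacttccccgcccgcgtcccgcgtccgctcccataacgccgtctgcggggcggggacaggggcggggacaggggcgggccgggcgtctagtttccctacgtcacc
BAX: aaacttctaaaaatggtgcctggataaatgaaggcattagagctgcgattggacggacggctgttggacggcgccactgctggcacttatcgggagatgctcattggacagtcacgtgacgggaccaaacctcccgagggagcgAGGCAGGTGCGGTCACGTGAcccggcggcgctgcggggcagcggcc
The PMAIP1 stretch is chr18:59899746-59899947 and the BAX stretch chr19:48954625-48954814, both on the plus strand (RefSeq, GRCh38.p14). The PMAIP1 stretch differs from the p53 consensus at 3 of 20 bases and the BAX stretch at 6.

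The other BH3-only gene among the members, BBC3, which encodes PUMA, was not called. It measured 34.3, 36.5 and 33.6 CPM in the controls and 33.7, 33.2 and 30.04 CPM in the labelled knockout, with overlapping groups and a log2 fold change of -0.11 (SE 0.072; edgeR adjusted p = 0.323). AEN, an apoptosis-enhancing nuclease, measured 59.6, 56.2 and 58.9 CPM against 55.5, 51.6 and 54.4 CPM. The groups did not overlap, by a margin of less than 1 CPM, and the log2 fold change of -0.11 was not called (SE 0.057; edgeR adjusted p = 0.195). PHLDA3, which restrains AKT at the membrane, stood at 23.2 ± 1.53 against 21.05 ± 1.97 CPM (SD, n = 3; log2 fold change -0.14).

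Other members of the cell death group had positive fold changes without a call. TRIAP1, a small p53-induced protein that inhibits apoptosis, measured 47.96, 45.5 and 43.3 CPM in the controls and 55.5, 50.2 and 51.2 CPM in the labelled knockout. The groups did not overlap, and the log2 fold change was 0.20 (SE 0.066; edgeR adjusted p = 0.0651; 0.0432 without control replicate 2, and from 0.0848 to 0.225 with any other library left out). PERP, a desmosome-associated membrane protein on chromosome 6, measured 236.5, 163.7 and 262.3 CPM against 264.4, 237.9 and 318 CPM. Control replicate 2 was far below the other controls, and the log2 fold change of 0.31 (SE 0.16; edgeR adjusted p = 0.218) was 0.13 without it (adjusted p = 0.254) and 0.19 without replicate 3 labelled knockout. PERP was called higher with the replicate numbers as a block (adjusted p = 0.0285) and with no count filter (adjusted p = 0.000222).

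TP53INP1, which promotes autophagy and p53 phosphorylation, lies on chromosome 8 and measured 45.3, 32.3 and 45.7 CPM in the controls against 46.6, 49.2 and 45.4 CPM in the labelled knockout. Its log2 fold change of 0.20 became 0.0498 once control replicate 2 was left out, and neither value was called. TNFRSF10C, a decoy receptor for the death ligand TRAIL, stood at 4.55 ± 0.185 against 5.22 ± 0.896 CPM (SD, n = 3), from 62 to 96 reads a library; its reads may be shared with the similar receptor genes beside it. TP53I3, a quinone oxidoreductase known as PIG3, stood at 7.90 ± 0.601 against 8.36 ± 0.870 CPM.

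In DNA repair and nucleotide supply 0 of 4 members were called, where 21.1% of all genes were. DDB2, the damage sensor of global nucleotide excision repair, measured 21.5, 23.03 and 21.3 CPM in the controls and 18.1, 19.2 and 19.2 CPM in the labelled knockout. The groups did not overlap, and the log2 fold change was -0.22 (SE 0.076; edgeR adjusted p = 0.0725). XPC, which acts with DDB2 in the same recognition step, stood at 51.5 ± 1.00 against 53.3 ± 1.56 CPM (SD, n = 3) and its groups overlapped. POLH, the translesion polymerase eta, stood at 19.4 ± 2.16 against 20.2 ± 1.69 CPM, and its log2 fold change went from 0.055 to -0.035 without control replicate 2 and to -0.0067 without replicate 2 labelled knockout.

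RRM2B, the p53-inducible subunit of ribonucleotide reductase, lies on chromosome 8 and measured 148.5, 111.4 and 151.9 CPM in the controls and 116.4, 124 and 119.4 CPM in the labelled knockout. Control replicate 2 was below all 3 labelled knockout libraries, and the other 2 controls were above them. The log2 fold change was -0.19 (SE 0.11; edgeR adjusted p = 0.228) with all libraries and -0.32 without control replicate 2 (adjusted p = 9.44e-05), the member with the lowest adjusted p there after ZMAT3. No other alternative called it, and without control replicate 3 the value was -0.12 (edgeR adjusted p = 0.507).

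Of the redox and metabolic members 0 of 5 were called, where 21.1% of all genes were. SESN2, a sestrin that senses leucine and restrains mTORC1, measured 134.8, 138.6 and 126.2 CPM in the controls and 119.7, 117.9 and 98.5 CPM in the labelled knockout. The groups did not overlap, and the log2 fold change of -0.25 (SE 0.078; edgeR adjusted p = 0.0524) was past the threshold in 6 of 13 alternatives, with adjusted p from 0.00669 to 0.129. SESN1, a related sestrin on chromosome 6, stood at 13.4 ± 2.79 against 12.2 ± 1.24 CPM (SD, n = 3), with a log2 fold change of -0.14. Leaving out 1 library moved it from -0.29 (without control replicate 2; edgeR adjusted p = 0.0745) to 0.016 (without control replicate 1; adjusted p = 0.953), so its sign rests on single libraries.

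FDXR, the mitochondrial ferredoxin reductase, stood at 59.8 ± 3.16 against 65.2 ± 7.96 CPM (SD, n = 3; log2 fold change 0.12). C12orf5, which encodes TIGAR, a fructose bisphosphatase that slows glycolysis, measured 24.01, 26.06 and 28.0 CPM against 32.3, 30.3 and 27.2 CPM. Its groups overlapped, with a log2 fold change of 0.20 (SE 0.089; edgeR adjusted p = 0.141). SPATA18, which takes part in mitochondrial quality control, had the fewest reads of the members, 14, 5 and 9 in the controls and 19, 15 and 19 in the labelled knockout. The groups did not overlap, and the log2 fold change of 0.88 had a wide interval (0.12 to 1.63; edgeR adjusted p = 0.0955). Over all members, 9 of 30 had groups that did not overlap (3 higher, 6 lower), where 41.2% of all genes tested did not overlap (20.9% higher and 20.3% lower).

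Members with a close p53 match in a window did not share a direction. Of the 7 printed above, MDM2 and FDXR had positive and the other 5 negative log2 fold changes, from -0.26 (PMAIP1) to 0.15 (MDM2), with a median of -0.11. The 19 members with windows but no such match ran from -0.46 (ZMAT3) to 0.88 (SPATA18), with a median of 0.0497. These are descriptions of a few genes, and the 2 ranges overlap.

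Exons of 11 members overlap another gene of GENCODE release 29 by symbol (CDKN1A and MDM2 among them), and without a stated strand setting reads of the overlap cannot be assigned. ZMAT3, PMAIP1 and BAX have no such overlap.

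Upstream regulators and cofactors of p53 were called at a share of 24.2%, where 21.1% of all genes were. Of 34 listed regulators 33 passed the count filter, and of these 7 rose and 1 fell (over all genes 9.73% rose and 11.4% fell), with a median log2 fold change of 0.075 (all genes 0.0084). PRKDC, the catalytic subunit of DNA-dependent protein kinase, rose by 0.51, CREBBP, a histone acetyltransferase that coactivates p53, by 0.41, and PPP1R13B, the p53 cofactor ASPP1, fell by 0.30 on the log2 scale. Among the others that rose were the checkpoint kinase CHEK2, the deubiquitinases USP7 and USP10, and the nucleolar protein GNL3. The call of CHEK2 was lost with DESeq2 and when any 1 library but control replicate 2 was left out, and that of USP10 when replicate 1 or 3 of either group was; with library size alone as the scaling neither was called, nor were USP7 and GNL3. Without control replicate 2 the counts were 11 and 3, where 2261 of all 16693 genes tested in that setting rose and 2361 fell. With library size alone as the scaling they were 3 and 2, where 986 of 16369 genes rose and 2343 fell. The number that rose was 4 when control replicate 3, or replicate 1 or 3 labelled knockout, was left out. The number that fell was 0 when control replicate 1 or any 1 library labelled knockout was left out. With any library but control replicate 2 left out, 10.7% to 15.4% of all genes were called. PRKDC lies on chromosome 8, and its controls measured 677, 439 and 580 CPM, control replicate 2 being the lowest. With 1 library left out its log2 fold change ran from 0.35 to 0.65. The call of PRKDC was lost without control replicate 3 or any 1 library labelled knockout (edgeR adjusted p up to 0.0981). That of PPP1R13B was lost with DESeq2 and without control replicate 1 or any 1 library labelled knockout.

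A further list of 42 p53 targets outside the members had 40 tested genes, of which 6 rose and 6 fell. That is a share of 30%, where 21.1% of all genes were called (9.73% higher and 11.4% lower). The median log2 fold change was 0.0053 (all genes 0.0084). ABCA12, a lipid transporter, rose by 1.43 and PRDM1, the transcription factor BLIMP1, by 0.72. The PRDM1 call was lost without control replicate 1 or any 1 library labelled knockout (edgeR adjusted p up to 0.172). Leaving out control replicate 1, or replicate 1 or 3 labelled knockout, cut the number that rose to 3. Over all genes the number that rose went from 1593 to 934, 756 and 793 in those settings.

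p53 also lowers cell cycle genes indirectly, when p21 activates the DREAM repressor complex. Of 20 listed genes of this kind 6 rose and 1 fell. That is a share of 35%, where 21.1% of all genes were called (9.73% higher and 11.4% lower). The median log2 fold change was 0.35 (all genes 0.0084). FOXM1, a transcription factor of mitotic genes, rose by 0.91, AURKB, a mitotic kinase, by 0.75, the kinesin KIF23 by 0.68, and the spindle midzone protein PRC1 by 0.54. The 1 that fell was CDK1, the mitotic kinase, by 0.45 on the log2 scale. That count was 0 when control replicate 1 or any 1 library labelled knockout was left out. Over all genes 1025 to 1410 fell in those settings, against 1861 with all libraries. Control replicate 2 had the highest summed level among the controls, 688 CPM against 543 and 498 CPM. It was close to the 692 to 776 CPM of the labelled knockout. Without that library 16 of the 20 rose, where 2261 of the 16693 genes tested in that setting rose. CDKN1A was not called over the same 6 libraries and was called lower without control replicate 2; a relation between its level and these genes was not tested.

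Some members also answer to stress pathways other than p53: SESN2, GDF15, PMAIP1 and BBC3 to ATF4, and BTG2, PLK2 and PLK3 to growth factor signals as immediate-early genes. Of 12 listed ATF4 targets 11 were tested. Of these, 2 rose (ATF3 by 0.30 and XBP1 by 0.21) and 1 fell (SLC7A11 by 0.26 on the log2 scale). The share called was 27.3%, where 21.1% of all genes were called (9.73% higher and 11.4% lower). The median was 0.026. XBP1 was not called, and 1 rose, with library size alone as the scaling or when replicate 1 of either group was left out. Over all genes 986, 934 and 756 rose in those settings, against 1593 with all libraries. Without control replicate 2 the number that fell was 2, where 2361 of all genes fell, against 1861 with all libraries. Of 16 immediate-early genes 5 rose and 0 fell, a share called of 31.25% beside the same 21.1% of all genes, with a median of -0.029. NR4A1, an orphan nuclear receptor, rose by 0.71 and DUSP1, a phosphatase of MAP kinases, by 0.57. The number that rose was 3 without control replicate 3 or replicate 1 labelled knockout, where 1174 and 756 of all genes rose. Without replicate 2 or 3 labelled knockout 1 fell, where 1410 and 1125 of all genes fell.

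**Figure D4:**
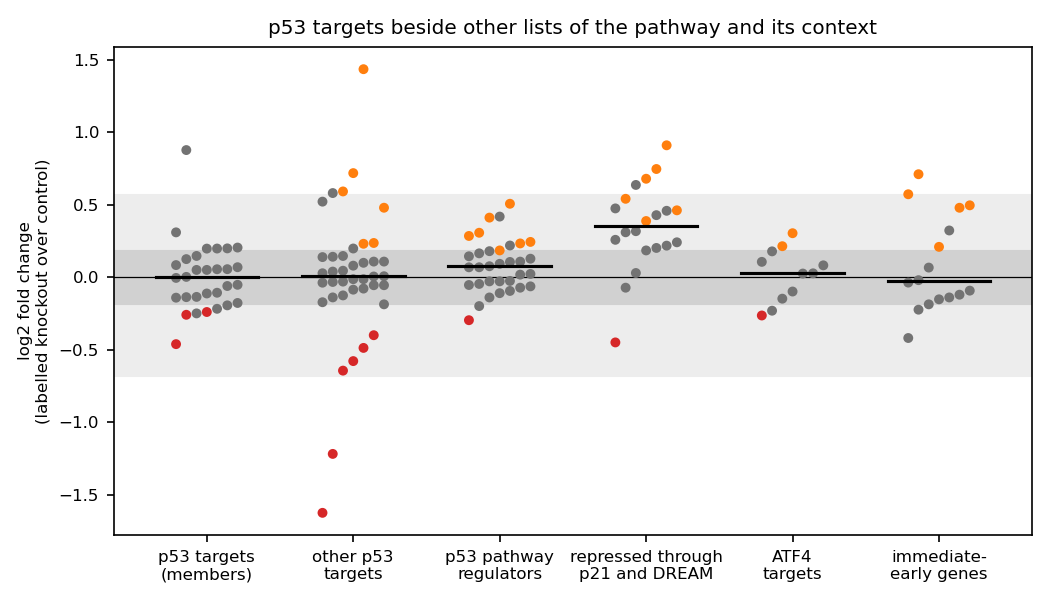
Each point is a tested gene's log2 fold change (libraries labelled knockout over control) in 6 lists, orange where called higher, red where called lower and grey where not called; black bars are list medians, and the grey bands hold the middle 50% and 90% of all genes tested (-0.19 to 0.18 and -0.68 to 0.57). The members centre on -0.0019 with 1 of 30 points (SPATA18) outside the wider band, and the genes repressed through p21 and DREAM centre on 0.35.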

How the data were processed

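Gene counts came from 6 RNA sequencing libraries, 3 of each group, made from 1 µg of total RNA per the labels' protocols. The deposited counts are raw reads per gene symbol; per the submitters' processing notes the tools were TopHat2 2.0.11 and HTSeq on the builds hg19 and GRCh37, with no HTSeq version or strand setting given in the sources used here. The 5 HTSeq summary lines (31.7% to 32.4% of listed reads) stayed out of library sizes and tests. Counts were tested across all genes with edgeR 4.0.16 (R 4.3.3; quasi-likelihood test, TMM scaling, filterByExpr with minimum count 10 and total 15), adjusted by Benjamini-Hochberg over 16369 genes and called under 0.05. Standard errors were taken as the absolute log2 fold change divided by the square root of the edgeR F statistic. The 95% intervals are the log2 fold change plus or minus that standard error times a t quantile. Floors cover counting error only. Fold changes carry edgeR's small default prior count.

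Members and lists were chosen with earlier results of these data known, so no test was made over a list. Named in full were called members, MDM2, CDKN1A, BAX, members with non-overlapping groups or an absolute log2 fold change of 0.3 or more, and up to 4 called genes of each other list, some of which are not reported here; PLK2, RRM2B, BBC3, members given by library because of control replicate 2, CHEK2, USP7, USP10, GNL3 and CDK1 were chosen after seeing values. Alternatives were DESeq2 1.42.0 or its size factors, library size alone, limma-voom (limma 3.58.1), 2 other filters, the replicate number as a block, a threshold of 0.01, and each library left out in turn. Chromosomes and promoter windows came from RefSeq (GRCh38.p14) and exons from GENCODE release 29, matched by symbol, 1 member by synonym. Within a group, chi-square per degree of freedom between libraries was 19.7 and 19.6 for the 2 pairs with control replicate 2 and 2.19 to 3.95 for the other 4 pairs, so no pair agreed within sampling noise.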

Additional observations from a re-analysis of the deposited data

How the results depend on the processing

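The number of members called higher was 0 with all libraries and 1 with limma-voom (MDM2), with no count filter and with the replicate block (PERP in both); with 1 library left out it ran from 0 to 1. The number called lower was 3, and 1 at an adjusted p under 0.01; with 1 library left out it ran from 2 to 7. The replicate block called 4 members lower. Same-numbered libraries had correlations of 0.0657, 0.167 and 0.122 in their deviations from the group means, and every library correlated best with its own number. This is a hint from the data only, since 1 of 3 was below 0.1 and the labels do not say that numbers mark a shared batch. Over all genes, 1593 higher and 1861 lower became 618 and 869 at an adjusted p under 0.01, 986 higher with library size alone, and with 1 library left out 756 to 2261 higher and 1025 to 2361 lower. Of 390 member values under alternatives, 370 kept the sign, and no called member changed sign. Over the alternatives, regulators called higher ran from 3 to 11 and lower from 0 to 3, other p53 targets from 2 to 7 and 5 to 7, genes repressed through p21 and DREAM from 4 to 16 and 0 to 1, ATF4 targets from 1 to 3 and 1 to 2, immediate-early genes from 3 to 6 and 0 to 2, and epithelial markers called lower from 0 to 2. Depth limits SPATA18 and TNFRSF10C most. The cause of these moves was not tested.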
